A study of Mus musculus with 4 samples.

Results

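Interferon-induced effector genes outside the large gene families were examined in mouse bone marrow-derived macrophages, 45 genes in all. The rule names them by symbol and uses no measured value, but the list was drawn up with earlier results of these data known, so it is not independent of them. In all, 44 of the 45 had a row among the 17013 genes listed. Rnf213 was not analysed here. All 44 were among the 12470 genes tested, so none fell under the filter on low values (at least 0.5 CPM, reads scaled to the library total, in at least 2 of the 4 libraries). The cells came from wild-type (WT) C57BL/6 male mice, were matured with M-CSF and were seeded on Transwell inserts. In both groups, aNBF, artificial necrotic bone fluid made from freeze-thawed bone and marrow, was added to the cells for 24 h. The fat control medium (Con, 2 libraries) was the middle layer of a freeze-thawed preparation of abdominal fat, and the high-fat-containing medium (Fat, 2 libraries) was the top layer. No library without aNBF or without fat-derived medium was among those analysed, and the sources used here state neither the age of the animals nor whether marrow was pooled. The labels number the replicates but do not say that they are separate cultures or animals. Each p-value therefore rests on the spread between these libraries, and this spread may be technical. In the main test it was in larger part borrowed from genes of similar level.

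Interferons are secreted proteins that bind their receptors on the cell surface and activate the JAK kinases. In the type I response, a complex that holds STAT2 and IRF9 binds the interferon-stimulated response element (ISRE) in promoters. The type II response acts through a different element (GAS). Many of the proteins that such genes encode block viruses, at steps from entry through membranes to replication and release. Others have different roles, and several feed back on the interferon signal. Macrophages are a cell type in which these genes are readily induced.

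Because the members were taken as one response, their promoters were searched for the sequences that these factors are known to bind. RefSeq promoters (build GRCm38.p6, 250 bases before to 50 bases after a transcription start) were available for 36 of the 45 genes by symbol, with 53 promoters in all. The others are Usp18, Mx1, Mx2, Ifi27l2a, Rtp4, Tor3a, Ly6a, Ly6e and Gvin1. The ISRE core was searched on both strands as GAAA followed, after any 2 bases, by a second GAAA, and GAS as TTCNNNGAA, which reads the same on both strands. The 2 motifs can overlap by sharing the bases GAA. The ISRE core was found in 10 of the 36 genes (27.8%), against 3.99% of all 27025 genes with a promoter, and in 10 of the 53 promoters (18.9%), against 3.44% of all 32851 promoters. GAS was found in 7 genes (19.4%), against 9.55% of all genes, and in 13.2% of the promoters, against 8.30% of all promoters. The genes with the ISRE core were Isg15, Rsad2, Phf11b, Bst2, Ifitm2, Ifitm3, Lgals9, Ogfr, Shisa5 and Tdrd7, and 22 of the 36 genes had neither motif. A match of letters in this window is a description and no proof of a binding site. The stretches of 250 bases before the start are given for 5 members, 1 from each of 5 functional groups, and were chosen by the smallest adjusted p among those with the core. They are read 5′ to 3′ along the gene, in lower case with the ISRE core in capitals.
Isg15 (chr4:156200819-156201068, minus strand): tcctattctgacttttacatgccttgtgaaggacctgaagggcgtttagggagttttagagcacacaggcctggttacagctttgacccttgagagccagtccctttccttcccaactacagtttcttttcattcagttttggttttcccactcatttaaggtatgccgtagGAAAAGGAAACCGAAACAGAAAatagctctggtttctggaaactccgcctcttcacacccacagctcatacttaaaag
Bst2 (chr8:71537473-71537722, minus strand): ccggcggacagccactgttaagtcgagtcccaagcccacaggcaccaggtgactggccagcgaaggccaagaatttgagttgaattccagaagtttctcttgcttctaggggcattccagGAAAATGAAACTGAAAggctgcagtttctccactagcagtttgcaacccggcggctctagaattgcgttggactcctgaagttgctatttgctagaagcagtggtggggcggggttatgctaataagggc
Phf11b (chr14:59341331-59341580, minus strand): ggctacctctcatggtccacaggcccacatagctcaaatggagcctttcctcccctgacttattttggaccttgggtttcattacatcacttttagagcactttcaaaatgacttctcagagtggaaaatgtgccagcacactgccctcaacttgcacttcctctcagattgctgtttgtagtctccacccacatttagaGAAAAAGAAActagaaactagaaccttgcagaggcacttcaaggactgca
Rsad2 (chr12:26456453-26456702, minus strand): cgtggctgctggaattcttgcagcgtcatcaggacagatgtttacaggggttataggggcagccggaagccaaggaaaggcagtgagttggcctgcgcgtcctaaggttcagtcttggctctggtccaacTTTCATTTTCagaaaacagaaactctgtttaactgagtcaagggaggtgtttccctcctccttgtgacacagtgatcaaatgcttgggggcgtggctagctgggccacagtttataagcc
Tdrd7 (chr4:45972047-45972296, plus strand, 1 of 3 starts): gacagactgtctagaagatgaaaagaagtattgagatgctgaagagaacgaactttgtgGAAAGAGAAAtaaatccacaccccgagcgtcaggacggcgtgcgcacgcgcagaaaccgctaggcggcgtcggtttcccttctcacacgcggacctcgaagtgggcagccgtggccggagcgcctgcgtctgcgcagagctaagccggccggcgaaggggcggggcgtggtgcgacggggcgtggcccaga
Positions are those of the first base shown in capitals, counted from the transcription start. In Isg15 the core occurred 3 times in an overlapping run from position -78, and in Bst2 it occurred 2 times in such a run from position -130. Phf11b had a single core at position -50. The single core of Rsad2, at position -120, lay on the opposite strand and so appears as its reverse complement. Tdrd7, which is shown as a member with the core that was not called, had a single core at position -191 and none at its other starts.

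The reads counted to the listed genes numbered between 33573852 and 40785872 in a library, and a single read was worth between 0.0244 and 0.0295 CPM. Every CPM value was a whole number of reads, so the reads could be recovered from the deposited values. Macrophage markers were abundant in all 4 libraries, but 7 of them summed to 34746 and 32779 CPM in Con and to 27440 and 25917 CPM in Fat, most of it Lyz2, at 28720.5 and 26819 CPM in Con and at 21516 and 20347 CPM in Fat. Of these 7, Fcgr1 and Mertk were called lower in Fat (log2 fold change -0.88 and -0.31), beside 5.0% of all genes tested. At an unadjusted limma p under 0.05, 4 were lower (12.4% of all genes tested). Without overlap of the libraries, 5 were lower (26.2% of all genes tested). Itgam and Cd68 overlapped. The F4/80 gene, listed as Emr1, was at 1216 and 1141 CPM in Con and at 1064 and 1000.4 CPM in Fat and was not called (limma adjusted p = 0.158). The 9 adipocyte markers other than Fabp4 had 7 and 9 reads together in Con and 480 and 277 reads in Fat. Of the 4 adipocyte markers tested, 3 were called higher in Fat by limma, beside 3.99% of all genes tested, and 1 by DESeq2. Fabp4, by far the most abundant of the 10 adipocyte markers, was at 189 and 208 CPM in Con and at 180.0 and 176 CPM in Fat and was not called (log2 fold change -0.16, limma adjusted p = 0.174). The 5 T and NK cell markers with a row summed to 6.37 and 5.28 CPM in Con and to 3.97 and 3.20 CPM in Fat, and the 5 conventional dendritic cell markers to 16.1 and 12.2 CPM in Con and 11.1 and 7.71 CPM in Fat. The 7 neutrophil markers with a row summed to 378 and 334 CPM in Con and to 323 CPM in each Fat library. For the 5 B cell markers the sums were 23.8 and 22.8 CPM in Con and 18.2 and 22.0 CPM in Fat. Those of the 6 plasmacytoid dendritic cell markers were 7.87 and 8.13 CPM in Con and 6.70 and 7.49 CPM in Fat. The 5 stromal markers overlapped, at 620 and 649 CPM in Con and 523 and 667 CPM in Fat. The 5 endothelial markers were higher in Fat, at 6.89 and 7.59 CPM against 6.55 and 4.66 CPM in Con. The part of these cell types in the results was not tested. In bulk RNA, fewer cells of a type and less RNA per cell cannot be told apart.

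Most of the interferon effectors were lower in Fat. Of the 44 genes tested, 28 were called lower and 0 higher, where a call is an adjusted p under 0.05 with limma on log2(CPM + 0.1). At an unadjusted limma p under 0.05, 40 were lower (12.4% of all genes tested) and 0 higher, and edgeR's quasi-likelihood test and DESeq2 on the recovered reads also called 0 higher. Among all 12470 genes tested, 5.0% were called lower, and 9.0% were called in either direction. The median log2 fold change of the 44 genes was -0.64, beside 0.01 for all genes tested. For 14 genes the log2 fold change was under -1, for 13 it lay between -1 and -0.5, and for 17 it was above -0.5. Of all genes tested, 1.03% had a lower log2 fold change than Gvin1, the smallest fall of the 14. For Isg20, the smallest fall of the 13, this share was 4.04%. In 40 of the 44 genes both Fat libraries lay below both Con libraries, which was so for 26.2% of all genes tested. The 4 genes whose libraries overlapped were Pnpt1, Shisa5, Ifi30 and Samd9l. The reads of all 44 genes summed to 6630 and 5790.3 CPM in Con and to 4899.8 and 3925 CPM in Fat. The same 28 genes were called by edgeR on the recovered reads, where 5.2% of all genes were called lower. DESeq2 called 24 (4.81% of all genes), of which 22 were among the 28: Usp18, Ifi44, Gvin1, Ly6a, Ly6e and Lgals9 were lost, and Adar and Daxx were gained. With the TPM values 16 were called lower (2.94% of all genes), all of them among the 28. Fewer than 28 were also called lower without Con replicate 1 or without Fat replicate 2, again all among the 28. Fewer of all genes were called lower in those fits too. The median log2 fold change of the members was -0.53 without Con replicate 1 and -0.47 without Fat replicate 2. The calls lost both without Con replicate 1 and without Fat replicate 2 were those of Uba7, Samhd1, Znfx1, Mx2, Gvin1, Ly6a, Ly6c2, Ly6e, Lgals9, Pml and Trafd1. Without limma's mean-variance trend 0 were called (smallest adjusted p = 0.0831), although 36 were lower at an unadjusted p under 0.05 (11.2% of all genes), and 31 of all 12470 genes were called at the adjusted threshold. The 16 genes called with the TPM values were also called by limma with the trend, by edgeR and by DESeq2. They were Isg15, Herc6, Ube2l6, Rsad2, Cmpk2, Mx1, Ifitm3, Bst2, Tor3a, Ly6c2, Phf11b, Phf11d, Ogfr, Nmi, Ifi35 and Epsti1. The share of all genes tested that passed these fits together was not computed.

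**Figure D1:**
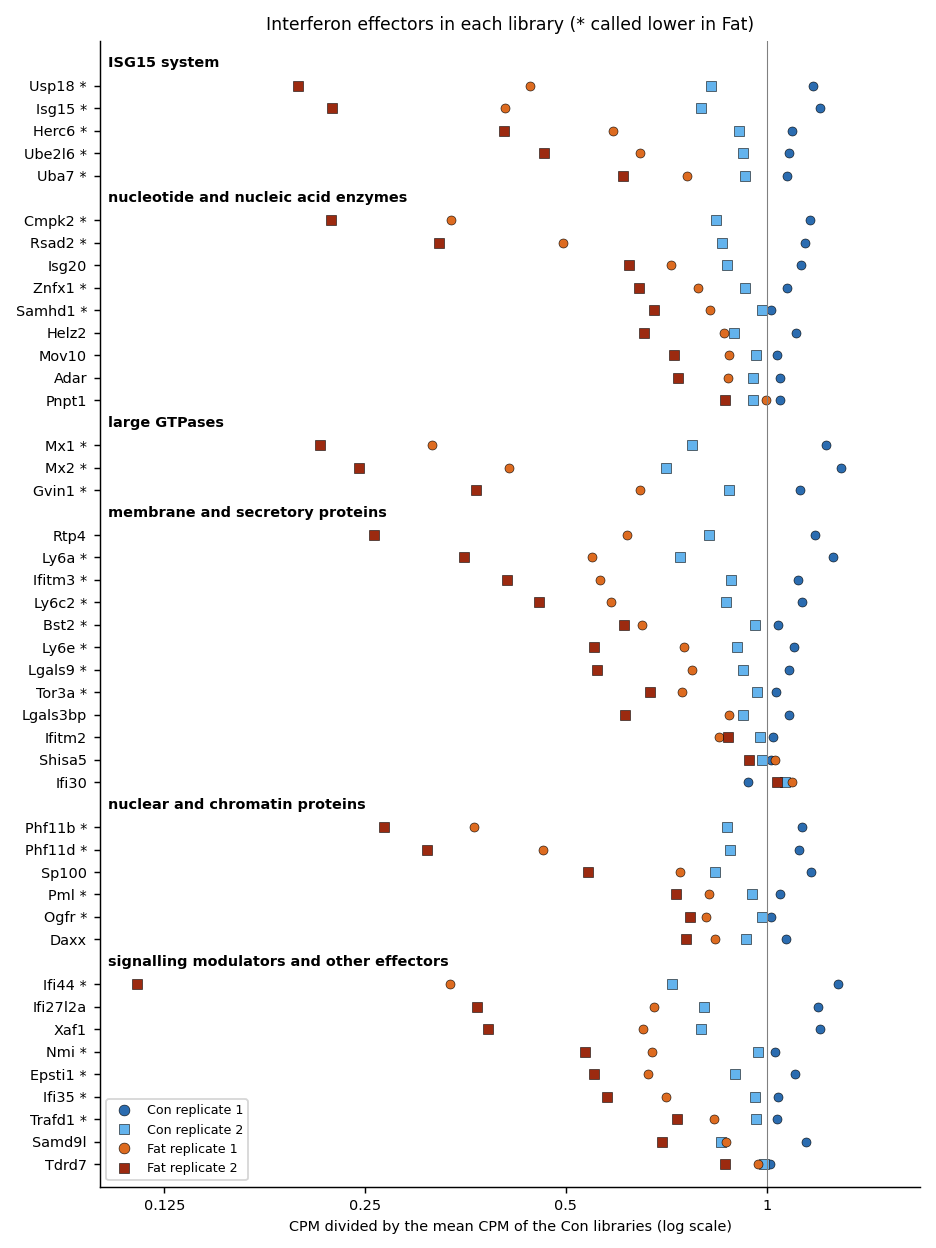
CPM of each of the 44 interferon effectors in each library, divided by the mean of that gene's Con libraries, on a log scale; each point is 1 library and an asterisk marks the 28 genes called lower in Fat. In 40 genes both Fat points lie to the left of both Con points, and Ifi44 has the largest fall (log2 fold change -2.28).

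**Figure D2:**
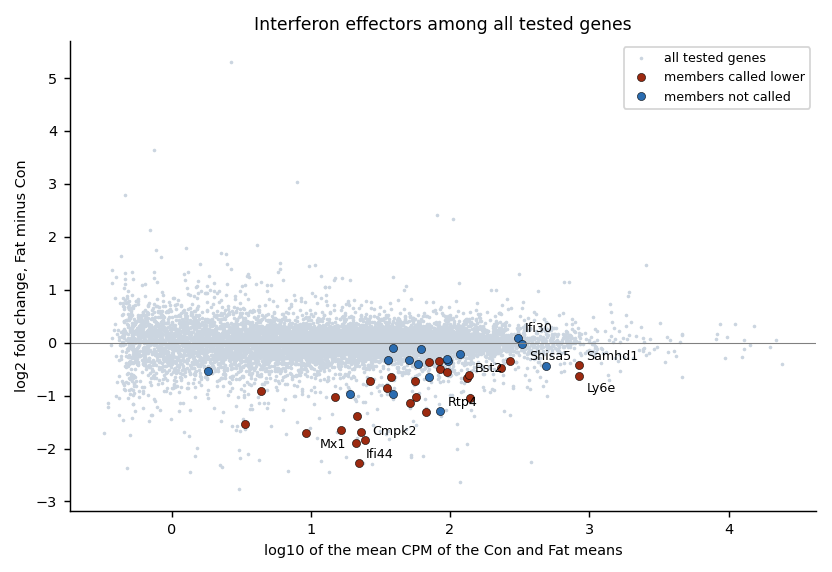
Log2 fold change of Fat against Con on log2(CPM + 0.1) for the 12470 genes tested (grey), against log10 of the mean CPM, with the 44 interferon effectors in colour. The effectors lie below 0 except Ifi30, and their median is -0.64 beside 0.01 for all genes.

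The 5 genes of the ISG15 system were all called lower. Isg15 encodes a ubiquitin-like protein that is secreted or joined to other proteins, in sequence by the activating enzyme Uba7, the conjugating enzyme Ube2l6 and the ligase Herc6, and Usp18 takes it off again. Throughout, values are given for replicate 1 and then replicate 2 of each medium. Isg15 was at 42.1 and 27.9 CPM in Con and at 14.2 and 7.81 CPM in Fat (log2 fold change -1.69, SE 0.28, limma adjusted p = 0.0144). Usp18, which also holds back signalling from the type I receptor, was at 16.5 and 11.6 CPM in Con and at 6.19 and 2.78 CPM in Fat (log2 fold change -1.71, SE 0.34, limma adjusted p = 0.0237). Isg15 was thus at 40.6% of the Con mean in Fat replicate 1 and at 22.3% in Fat replicate 2, and Usp18 at 44.1% and 19.8%. For the ligase Herc6 the levels were 82.6 and 69.0 CPM in Con and 44.6 and 30.6 CPM in Fat (log2 fold change -1.03, SE 0.17, limma adjusted p = 0.013). The conjugating enzyme Ube2l6 was at 49.1 and 41.9 CPM in Con and at 29.4 and 21.1 CPM in Fat (log2 fold change -0.86, SE 0.15, limma adjusted p = 0.0163). The activating enzyme Uba7 had the smallest fall of this group, from 122 and 105 CPM to 86.2 and 69.1 CPM (log2 fold change -0.55, limma adjusted p = 0.0255). The libraries of the 2 media did not overlap for any of the 5 genes. In Herc6, 11.3% of all possible stretches of 75 bases also occur in transcripts of other genes (annotation GENCODE vM21), mostly Gm45193, so reads from these cannot be told apart.

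Of the 9 enzymes that act on nucleotides and nucleic acids, 4 were called lower and 5 were not called. Rsad2 and Cmpk2 are neighbours on chromosome 12 with no coding gene between them. Rsad2 (viperin) makes a modified nucleotide that ends viral RNA chains, and Cmpk2 is a mitochondrial nucleotide kinase. Cmpk2 was at 44.8 and 32.4 CPM in Con and at 13.0 and 8.59 CPM in Fat (log2 fold change -1.84, SE 0.21, limma adjusted p = 0.00447), that is at 33.6% and 22.2% of the Con mean in the Fat libraries. Rsad2 was at 109.7 and 82.3 CPM in Con and at 47.6 and 31.0 CPM in Fat (log2 fold change -1.30, SE 0.20, limma adjusted p = 0.0111). Among all genes tested, 0.209% had a lower log2 fold change than Cmpk2. Samhd1, which degrades deoxynucleotides, was one of the most abundant members, at 978 and 949.8 CPM in Con and at 792 and 652 CPM in Fat, and fell by less (log2 fold change -0.42, limma adjusted p = 0.0358). Znfx1, a helicase-like protein that senses viral RNA, was at 289 and 250.2 CPM in Con and at 213 and 173 CPM in Fat (log2 fold change -0.49, limma adjusted p = 0.0339). The other 5 enzymes did not pass the test, although the Fat libraries lay below the Con libraries in 4 of them. The RNA-editing enzyme Adar was at 109 and 99.6 CPM in Con and at 91.3 and 76.9 CPM in Fat (limma adjusted p = 0.0734), with 13.1% of its stretches of 75 bases read on the opposite strand in Chrnb2. Mov10, an RNA helicase, was at 41.0 and 38.1 CPM in Con and at 34.7 and 28.7 CPM in Fat (limma adjusted p = 0.09). Helz2, a helicase that acts as a coactivator of nuclear receptors, was at 73.8 and 59.4 CPM in Con and at 57.6 and 43.6 CPM in Fat (limma adjusted p = 0.136). The exonuclease Isg20 was among the scarcest members, at 2.48 and 1.92 CPM in Con and at 1.58 and 1.37 CPM in Fat (limma adjusted p = 0.161). Pnpt1, the polynucleotide phosphorylase of mitochondria, was at 42.4 and 38.6 CPM in Con and at 40.4 and 35.0 CPM in Fat, and its libraries overlapped (log2 fold change -0.11, limma adjusted p = 0.512).

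The 3 large GTPases were called lower. Mx1 and Mx2 encode dynamin-like proteins that trap viral nucleocapsids, but C57BL/6 mice are known to carry defective copies of both, and RefSeq lists both as transcribed pseudogenes. Mx1 was at 41.2 and 25.9 CPM in Con and at 10.6 and 7.17 CPM in Fat (log2 fold change -1.90, SE 0.24, limma adjusted p = 0.00574). For Mx2 the values were 6.58 and 3.60 CPM in Con and 2.09 and 1.24 CPM in Fat (log2 fold change -1.53, SE 0.32, limma adjusted p = 0.029). In both genes the Con replicates themselves differed, Con replicate 2 being the lower, yet it stayed above both Fat libraries. Gvin1, a very large interferon-induced GTPase, was at 22.2 and 17.4 CPM in Con and at 12.8 and 7.24 CPM in Fat (log2 fold change -1.02, SE 0.24, limma adjusted p = 0.043). Its value is uncertain, because 98.3% of its stretches of 75 bases also occur in transcripts of other genes, mostly Gm4070, and the way such reads were counted is not given in the sources used here. Mx1 and Mx2 share 73 such stretches with each other, 1.71% and 2.01% of their own.

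Among 12 genes of membrane and secreted proteins, 7 were called lower and 5 were not called, and the fold changes ranged from -1.30 (Rtp4) to 0.09 (Ifi30) on the log2 scale. The paralogues Ifitm2 and Ifitm3, which lie on chromosome 7 with 1 coding gene between them and whose proteins stop viruses from fusing with endosomes, were not both called. Ifitm3 was at 207 and 165 CPM in Con and at 105 and 76.0 CPM in Fat (log2 fold change -1.05, SE 0.16, limma adjusted p = 0.00973), whereas Ifitm2 was at 130.4 and 124 CPM in Con and at 108 and 111 CPM in Fat and was not called (log2 fold change -0.21, SE 0.055, limma adjusted p = 0.0545). A test of the difference between the 2 genes was not run, and 42.0% of the stretches of 75 bases in Ifitm2 also occur in transcripts of other genes, mostly Gm45717. Bst2 (tetherin), which holds budding virus at the cell surface, was at 169.7 and 157 CPM in Con and at 106 and 99.6 CPM in Fat (log2 fold change -0.66, SE 0.063, limma adjusted p = 0.00328). Both libraries of each medium lay close together for Bst2, which had the smallest adjusted p of all 44 genes. Rtp4, a chaperone of membrane receptors, had the largest fold change of this group, at 140.0 and 97.2 CPM in Con and at 73.3 and 30.5 CPM in Fat, but was not called (log2 fold change -1.30, SE 0.36, limma adjusted p = 0.0692), and its Fat libraries lay far apart. Of its stretches of 75 bases, 10.5% are shared with Gm45338.

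Ly6a, Ly6c2 and Ly6e belong to a family of lipid-anchored surface proteins and lie close together on chromosome 15, with 1 coding gene in RefSeq between Ly6e and Ly6a and 1 between Ly6a and Ly6c2. Ly6a (Sca-1) was at 89.6 and 52.8 CPM in Con and at 38.9 and 25.1 CPM in Fat (log2 fold change -1.14, SE 0.26, limma adjusted p = 0.0396). Ly6c2, part of the Ly6C antigen of inflammatory monocytes, was at 6.49 and 4.98 CPM in Con and at 3.35 and 2.61 CPM in Fat (log2 fold change -0.92, SE 0.18, limma adjusted p = 0.0243), and shares 9.46% of its stretches of 75 bases with Ly6c1. Ly6e, a restriction factor of coronaviruses, was the most abundant member per gene length in Con, and was at 1126 and 924 CPM in Con and at 771 and 565 CPM in Fat (log2 fold change -0.63, SE 0.15, limma adjusted p = 0.0446). All 3 were called lower without overlap of the libraries. Tor3a, an ATPase of the endoplasmic reticulum, fell from 102 and 95.6 CPM to 73.9 and 66.1 CPM (log2 fold change -0.50, limma adjusted p = 0.00845). The lectin Lgals9 (galectin-9) fell from 176 and 150.2 CPM to 126 and 90.6 CPM (log2 fold change -0.60, limma adjusted p = 0.0455). The secreted Lgals3bp, a partner of galectin-3, was at 600.3 and 512 CPM in Con and at 488 and 341 CPM in Fat and was not called (limma adjusted p = 0.135). Shisa5, a protein of the endoplasmic reticulum, was at 334 and 323 CPM in Con and at 339 and 309 CPM in Fat, and its log2 fold change of -0.02 (SE 0.064) turned to 0.043 without Fat replicate 2 and to 0.0085 with the TPM values. Ifi30, the thiol reductase of lysosomes that helps to prepare antigens, was the single member with a log2 fold change above 0, at 278 and 316 CPM in Con and at 324 and 308 CPM in Fat (log2 fold change 0.09, SE 0.073, limma adjusted p = 0.495).

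Of the 6 nuclear and chromatin proteins, 4 were called lower, and in all 6 both Fat libraries lay below both Con libraries. Phf11b and Phf11d, PHD finger genes that neighbour each other on chromosome 14, had the largest falls. Phf11b was at 28.1 and 21.8 CPM in Con and at 9.08 and 6.66 CPM in Fat (log2 fold change -1.66, SE 0.17, limma adjusted p = 0.00352), and Phf11d was at 34.9 and 27.5 CPM in Con and at 14.4 and 9.63 CPM in Fat (log2 fold change -1.39, SE 0.19, limma adjusted p = 0.00735). Phf11b shares 26.8% of its stretches of 75 bases with other genes, among them Phf11c, Phf11a and Phf11d, so the 2 values may not be independent. Pml, Sp100 and Daxx are components of the nuclear bodies named after PML. Pml was at 83.0 and 75.3 CPM in Con and at 64.9 and 57.8 CPM in Fat (log2 fold change -0.37, limma adjusted p = 0.0292) and was called, while Sp100 at 99.96 and 71.7 CPM in Con and at 63.5 and 46.3 CPM in Fat (log2 fold change -0.64, limma adjusted p = 0.0721) and Daxx at 60.3 and 52.6 CPM in Con and at 47.2 and 42.8 CPM in Fat (log2 fold change -0.33, limma adjusted p = 0.0555) were not. The fold change of Sp100 was the larger of these, and its Con libraries lay farther apart than those of Pml. Ogfr, a receptor for an opioid growth factor, was at 94.1 and 91.1 CPM in Con and at 75.2 and 71.0 CPM in Fat (log2 fold change -0.34, limma adjusted p = 0.0148).

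Of the 9 further effectors tested, which modulate signalling or have other roles, 5 were called lower. Ifi44 had the largest fall of all 44 genes, from 46.1 and 26.0 CPM in Con to 12.1 and 4.10 CPM in Fat (log2 fold change -2.28, SE 0.46, limma adjusted p = 0.0252). Its libraries were widely spaced within each medium, and the Fat libraries were still both below the lower Con library. Nmi and Ifi35, which bind each other and are released as danger signals, had similar values: Nmi was at 33.9 and 31.9 CPM in Con and at 22.2 and 17.6 CPM in Fat (log2 fold change -0.73, SE 0.11, limma adjusted p = 0.0104), and Ifi35 was at 47.7 and 44.1 CPM in Con and at 32.4 and 26.5 CPM in Fat (log2 fold change -0.65, SE 0.10, limma adjusted p = 0.0114). Epsti1, known from macrophage activation, was at 77.0 and 62.7 CPM in Con and at 46.4 and 38.4 CPM in Fat (log2 fold change -0.72, SE 0.12, limma adjusted p = 0.0141). Trafd1, a feedback inhibitor of Toll-like receptor signalling, fell by less, from 313 and 291 CPM to 251 and 222 CPM (log2 fold change -0.35, limma adjusted p = 0.0292). Xaf1, an antagonist of the apoptosis inhibitor XIAP, and Ifi27l2a, a small hydrophobic protein, had fold changes near that of Ly6c2 but were not called. Xaf1 was at 30.2 and 20.0 CPM in Con and at 16.4 and 9.59 CPM in Fat (log2 fold change -0.97, SE 0.26, limma adjusted p = 0.0652), and Ifi27l2a was at 61.4 and 41.5 CPM in Con and at 34.9 and 18.9 CPM in Fat (log2 fold change -0.97, SE 0.28, limma adjusted p = 0.0765). In both genes the Fat libraries lay below the Con libraries, but Con replicate 2 and Fat replicate 1 were close to each other. Samd9l, which restrains proliferation, was at 123 and 92.2 CPM in Con and at 93.8 and 75.1 CPM in Fat, so that Fat replicate 1 lay above Con replicate 2 (log2 fold change -0.35, SE 0.15, limma adjusted p = 0.204). Tdrd7, a Tudor protein of RNA granules, was at 65.4 and 64.1 CPM in Con and at 62.7 and 56.1 CPM in Fat (log2 fold change -0.12, SE 0.068, limma adjusted p = 0.32).

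The size of the fall differed between the Fat libraries. Taken against the Con mean on log2(CPM + 0.1), the median over the 44 genes was -0.47 in Fat replicate 1 and -0.85 in Fat replicate 2, beside 0.0022 and 0.02 over all genes tested. The median member was at 71.2% of the Con mean in Fat replicate 1 and at 55.4% in Fat replicate 2. In Fat replicate 1, 9 genes were under 50% of the Con mean, and in Fat replicate 2, 18 genes were. The share of all genes tested under 50% was not computed. Fat replicate 2 lay below Fat replicate 1 in 43 of the 44 genes, with Ifitm2 as the exception, and in 49.3% of all genes tested. The Con libraries were ordered in the same way, Con replicate 2 lying below Con replicate 1 in 43 of the 44 genes (50.5% of all genes), with Ifi30 as the exception. Replicate 2 was therefore the lower one in both media for 42 genes (95.5%), beside 27.9% of all genes tested. The median gap was -0.37 on the log2 scale between the Fat replicates and -0.27 between the Con replicates. Over all genes tested these medians were 0.0025 and -0.0016. The gap was wider in Fat in 32 of the 44 genes, and in 6026 of all 12470 genes tested. The genes are not independent of each other, so these are not counts of independent observations, and with 2 libraries in a medium the gap itself was not tested. Ifi44 had the widest gap, its fall being -1.51 in Fat replicate 1 and -3.05 in Fat replicate 2. Rtp4 followed, with falls of -0.67 and -1.93, and then Usp18, with -1.15 and -2.27. Other strongly lowered genes had narrower gaps, such as Phf11b with -1.44 and -1.88 and Mx1 with -1.62 and -2.17, and Bst2 had almost none, with -0.62 and -0.71. The 9 adipocyte markers other than Fabp4 were higher in Fat replicate 1 (12.9 CPM) than in Fat replicate 2 (6.76 CPM), the library with the larger fall of the effectors, while Fabp4 was at 180.0 and 176 CPM in these libraries. Whether these are linked was not tested.

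**Figure D3:**
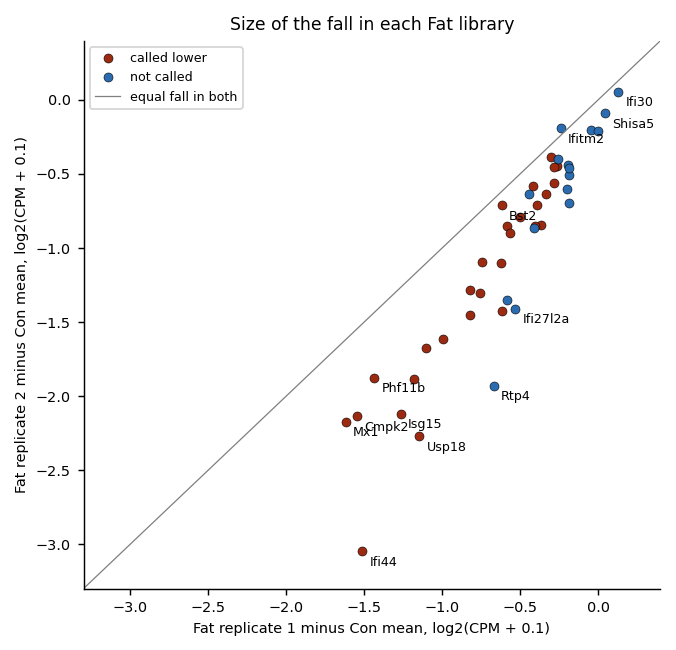
Log2(CPM + 0.1) of each Fat library minus the mean of the Con libraries, with Fat replicate 1 on the x axis and Fat replicate 2 on the y axis; each point is 1 of the 44 interferon effectors and the line marks an equal fall in both. Of the 44 points, 43 lie below the line, and Ifi44, Rtp4 and Usp18 lie farthest from it.

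Levels of different genes were compared per gene length, with the TPM values the authors deposited. In Con the most abundant member was Ly6e at 1070.4 and 862 TPM, followed by Ifi30 at 619.9 and 690.4 TPM and Ifitm3 at 700.4 and 545 TPM. The Con values overlapped in 34 of the 43 pairs of neighbours in this order, Ifi30 and Ifitm3 among them, so most neighbours did not differ beyond their spread. In Fat, Ifi30 came first, at 732 and 695 TPM, and Ly6e second, at 743 and 544 TPM, and these overlapped. Ifitm3 went from the third place to the seventh, at 358 and 259.6 TPM. The scarcest members were Gvin1, at 2.68 and 2.06 TPM in Con, Isg20, at 3.44 and 2.61 TPM, and Mx2, at 5.94 and 3.19 TPM. Of the 6 most abundant members in Con, Ly6e, Ifitm3, Samhd1 and Bst2 were called lower and Ifi30 and Lgals3bp were not.

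The ISRE core in the promoter was set beside the falls. Of the 10 members with the core, 7 were called lower, with a median log2 fold change of -0.63 (range -1.69 to -0.02), and of the 25 tested members with a promoter but no core, 14 were, with a median of -0.54. The members with a promoter, no core and a log2 fold change under -1 were Ifi44, Cmpk2, Phf11d and Herc6. Ifi44 and Phf11d did match a form with 3 bases between the GAAA pairs, whereas Cmpk2 and Herc6 did not. The members with the core that were not called were Shisa5, Tdrd7 and Ifitm2. Over all other tested genes with a promoter, the core was present in 354, of which 62 (17.5%) were called lower and 14 (3.95%) higher. Of the 8959 other genes without the core, 390 (4.35%) were called lower and 354 (3.95%) higher. With GAS, 62 of 776 other genes (7.99%) were called lower and 3.09% higher. Of the 8537 other genes without it, 4.57% were called lower and 4.03% higher. Among the members, 4 of 7 with GAS were called lower (57.1%, median log2 fold change -0.54). Without it, 17 of 28 were (60.7%, median -0.58). These shares are descriptions, since no test was made and one motif can lie beside many others in a promoter.

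The genes upstream of these effectors were described by role. Of 33 such genes 25 had a row and 22 were tested, of which 7 were called lower and 0 higher (and 0 higher at an unadjusted limma p under 0.05, or with edgeR or DESeq2), beside the 5.0% of all genes tested that were called lower. Of the 10 interferon genes listed, Ifng and Ifnb1 had a row, and the other 8 were not analysed here. Ifng, the type II interferon, had 13 and 17 reads in Con and 4 and 4 reads in Fat, and so fell under the filter. Ifnb1, the type I interferon beta, had 1 read in each Con library and 0 in each Fat library, which is at or under the limit of detection of 3 reads. Of the 5 receptor genes tested, 0 were called by limma, edgeR or DESeq2, and 1 (Ifngr2, log2 fold change -0.18) was lower at an unadjusted limma p under 0.05. Ifnar1, for the type I receptor, was at 141 and 147 CPM in Con and at 140.1 and 139.5 CPM in Fat (log2 fold change -0.04, SE 0.053), and Ifngr1, for the type II receptor, was at 169 and 164 CPM in Con and at 165 and 182 CPM in Fat (log2 fold change 0.06, SE 0.065). Of the signal transducers, Stat2, at 206 and 157 CPM in Con and at 152 and 101 CPM in Fat (log2 fold change -0.54, SE 0.19, limma adjusted p = 0.133), and Irf9, at 70.2 and 63.04 CPM in Con and at 64.4 and 50.1 CPM in Fat (log2 fold change -0.23, SE 0.12, limma adjusted p = 0.284), which join in the type I complex, were not called. Jak1 was at 336 and 335 CPM in Con and at 344 and 324 CPM in Fat (log2 fold change -0.01, limma adjusted p = 0.955). Jak2, a kinase of the type II receptor, fell slightly (log2 fold change -0.29, limma adjusted p = 0.0476). Irf1, a transcription factor induced through GAS, was at 367 and 362 CPM in Con and at 224 and 180.0 CPM in Fat (log2 fold change -0.86, SE 0.10, limma adjusted p = 0.00447), with its Con libraries close together. Irf7, which amplifies the type I response, was at 112 and 72.7 CPM in Con and at 60.0 and 24.6 CPM in Fat (log2 fold change -1.23, SE 0.37, limma adjusted p = 0.0918) and was not called, its Fat libraries lying far apart. Irf8 and Irf2 were also called lower (log2 fold changes -0.48 and -0.27, limma adjusted p = 0.00825 and 0.037). Of the negative regulators, Socs1 (-1.02), Ptpn6 (-0.70) and Socs3 (-0.60) were called lower on the log2 scale, with limma adjusted p = 0.017, 0.00286 and 0.0298. With the TPM values, where 2.94% of all genes were called lower, 4 pathway genes were. Without limma's mean-variance trend 0 were, although 7 were lower at an unadjusted p under 0.05 (11.2% of all genes). Fewer than 7 were called lower without Con replicate 1 or without Fat replicate 2, where fewer of all genes were too.

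**Figure D4:**
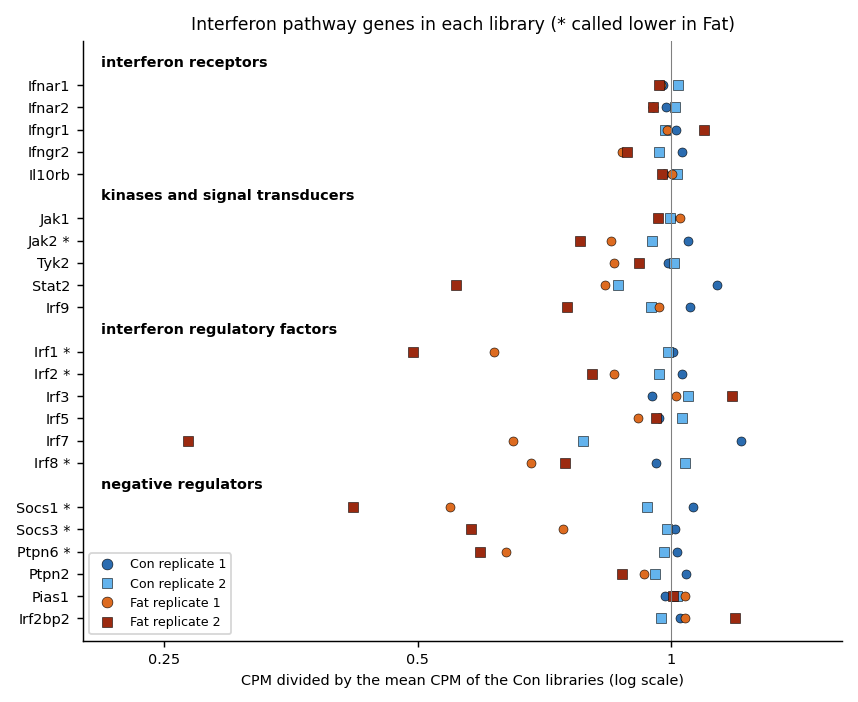
CPM of the 22 tested interferon pathway genes in each library, divided by the mean of that gene's Con libraries, on a log scale; each point is 1 library and an asterisk marks the 7 genes called lower in Fat. In the Fat libraries the receptor genes lie between 87.6% and 109.7% of the Con mean, while both Fat points of Irf1 and Socs1 lie to the left of both Con points.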

How the data were processed

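RNA for 2 Con and 2 Fat libraries was sequenced by the authors as polyA RNA with a stranded kit, and the authors deposited CPM and TPM values for 17013 genes. The deposited CPM values are reads scaled to each library's total over the listed genes, divided by a further factor of between 0.990 and 1.01, and 100.0% of them were whole multiples of 1 read (tolerance 0.001 read). The deposited TPM values, scaled for gene length too, were used for the order of levels and as an alternative. The submitters' processing notes name the build GRCm39. The aligner, counter, strand setting and annotation are not given in the sources used here, and no gene coordinates from the files are printed. The study used edgeR, which needs counts, whereas CPM values were deposited. Although reads could be recovered from these, the main test here was planned on the CPM values, with limma 3.58.1 in R 4.3.3, two-sided. It took CPM plus 0.1 on the log2 scale, let the variance follow the mean level, and p-values were adjusted by Benjamini-Hochberg over 12470 genes. Members were matched by symbol. The members and the lists were chosen with earlier results of these data known. Full values are given for the 4 called members with the largest fold change in each functional group, all members not called, and paralogous members; Uba7, Tor3a, Lgals9 and Trafd1, the called members this rule left out, were added after their values were seen. Reads recovered from CPM were tested with edgeR 4.0.16 (1138 genes called) and DESeq2 1.42.0, and further alternatives are given with their effect at the end. The tests were first tried on simulated counts. Shared stretches of 75 bases were found by exact match in GENCODE vM21 transcripts, either strand. Motifs, tables and figures used Python 3.11.15, pandas 2.3.3 and matplotlib 3.10.9. Protein sequences were not used here, and 1 pathway gene is not reported here.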

Additional observations from a re-analysis of the deposited data

How the results depend on the processing

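The direction of the members was the same under every alternative tried except for Shisa5, which was not called and whose log2 fold change of -0.02 became 0.0085 with the TPM values and ran from -0.090 (without Fat replicate 1) to 0.043 (without Fat replicate 2) as single libraries were left out. For 42 of the 44 members the log2 fold change was below 0 without each library in turn. The number of members called lower, 28, was 16 with TPM, 0 without the mean-variance trend, and from 16 to 37 as single libraries were left out. It stayed within 1.5 times of 28 with edgeR, DESeq2, median-ratio rescaling, 1 CPM as the pseudocount, and either no filter on low values or a stricter one (mean CPM of 5 or more). Among all tested genes, 1122 were called, 31 without the trend and from 529 to 1131 across the fits on 3 libraries. Of these, 624 were lower, 366 with TPM, 12 without the trend and from 313 to 612 across those fits. Pathway genes called lower numbered 7, 4 with TPM, 0 without the trend and from 3 to 10 across those fits. The median log2 fold change of the members, -0.64, ran from -0.85 to -0.47 across those fits. The cause of these moves was not tested.

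The labels give both media replicates 1 and 2, and nothing says that a number marks a shared animal, batch or day. The deviations of libraries with the same number from their group means had r = 0.20 over 12470 genes, which are not independent replicates. With the replicate block, 2520 genes were called (1242 lower), with 39 members and 12 pathway genes lower. The 39 included all 28. A fit with a block leaves each gene 1 residual degree of freedom. Its total was 29.4, against 7.42 in the main fit, the rest being borrowed from other genes. The calls with the block thus rest mostly on the spread of other genes. With 3 bases between the GAAA pairs, this form of the ISRE core was in 7 of 36 members (19.4%, against 3.17% of all genes with a promoter), Ifi44 and Phf11d among them. The comparison of paralogous proteins was not run. At 2 libraries in a medium an exact permutation test of a single gene cannot give a two-sided p below 0.333.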
